A study of Homo sapiens with 6 samples.

Results

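Long transcripts that carry microRNAs were measured by RNA-seq of PLC/PRF/5 cells, a line from a human hepatocellular carcinoma (HCC), with and without knockdown of MTR4. The 47 transcripts were chosen by name and by total count: their GENCODE symbol begins with MIR and ends with HG, for host gene, and they had at least 10 counts over the 6 libraries. They were 47 of the 60675 counted genes. The annotation held 83 such symbols, of which 81 were counted, and 34 of these stayed under 10 counts, with 14 at 0 in every library. Just inside the threshold were MIR7-3HG with 10 counts and MIR142HG and MIR181A2HG with 11 each, and just outside were MIR365BHG with 9, MIR124-1HG with 8 and MIRLET7A1HG with 7. The groups were control and MTR4 KD, with 3 libraries each, in total RNA of the same line. The study describes the knockdown as an shRNA against MTR4 that doxycycline (Doxy) switches on, compared with the same cells before Doxy, while the series' own design text calls the controls wild. Which control cells were sequenced is thus uncertain, and effects of the shRNA vector, of selection and of the knockdown cannot be told apart. No Doxy-treated cells with a scramble shRNA were analysed here, so effects of Doxy and of the knockdown cannot be told apart.

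A microRNA is cut out of a longer primary transcript in the nucleus by DROSHA and DGCR8, carried out by XPO5, trimmed by DICER1 and loaded into an AGO protein, where its seed pairs with target mRNAs. The host transcripts here are mostly long noncoding RNAs that hold the hairpin in an exon or an intron. MTR4 is the helicase that feeds noncoding and misprocessed nuclear RNAs to the RNA exosome, so the question here was which host transcripts differed in level after its knockdown.

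For each hairpin inside the 8 hosts called with the library batch in the fit, described below, a single mature microRNA is shown. The sequences are from RefSeq (GRCh38.p14), 5′ to 3′, with the seed, bases 2 to 8, in capitals, so that hosts can be compared. The opposite arm of a hairpin, where RefSeq lists one, is not printed.
hsa-miR-210-3p (MIR210HG): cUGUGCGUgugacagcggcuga
hsa-miR-122-5p (MIR122HG): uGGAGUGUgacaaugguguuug
hsa-miR-192-5p (MIR194-2HG): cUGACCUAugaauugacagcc
hsa-miR-194-5p (MIR194-2HG): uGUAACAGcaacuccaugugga
hsa-miR-1915-3p (MIR1915HG): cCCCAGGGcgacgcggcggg
hsa-miR-22-3p (MIR22HG): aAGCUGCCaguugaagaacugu
hsa-miR-4458 (MIR4458HG): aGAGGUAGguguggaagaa
hsa-miR-3677-3p (MIR3677HG): cUCGUGGGcucuggccacggcc
hsa-miR-940 (MIR3677HG): aAGGCAGGgcccccgcucccc
hsa-miR-4435 (MIR4435-2HG): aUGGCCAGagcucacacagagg
The seeds in these lines differ from one another. Over all hosts, GAGGUAG, the let-7 seed that miR-4458 carries, was the one found in most hosts, 6 in all: MIR100HG, MIR4458HG, MIR4500HG, MIR99AHG, MIRLET7BHG and MIRLET7IHG. RefSeq placed mature microRNAs inside 42 of the 47 hosts, 110 sequences in all.

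Between 60686786 and 72708682 counts per library fell on genes. The share of entries whose alignment was not unique was over 30% in 3 libraries, MTR4 KD replicate 3 and control replicates 1 and 3, and 14.8% to 18.2% in the other 3. These sets are called the high-multimapping and the low-multimapping batch, or library batch for short. The labels name no such batch. Both conditions were in each, but MTR4 KD replicate 3 was the only knockdown library of the high-multimapping batch. Control replicate 2 was the only control of the low-multimapping batch. Each difference given inside a batch thus rests on a single library in 1 condition. Expression is given as CPM, the count of a gene relative to its library's total after TMM scaling. A gene was called at an adjusted p under 0.05 in the quasi-likelihood test of edgeR with a single term for condition, and p-values were adjusted by Benjamini-Hochberg over the 18075 tested genes. Values with the library batch as a further term are given beside it. Without control replicate 2 or MTR4 KD replicate 3, a batch holds a single condition, and that fit then rests on the other batch. The labels do not say that replicates were separate cultures, so p-values measure the spread between these libraries, which may be technical. MTR4 itself (MTREX, ENSG00000039123) had 72.2, 87.4 and 74.4 CPM in control and 44.6, 48.8 and 44.1 CPM in MTR4 KD libraries, with no overlap. The fitted log2 change was -0.77 (SE 0.0897, adjusted p = 0.00641, edgeR). Liver markers were present: the summed level of 8 (ALB, AFP, APOA1, APOB, TTR, SERPINA1, FGB, HNF4A) was 20667 to 22234 CPM in control and 21144 to 22777 CPM in MTR4 KD libraries. Markers of other cell types, 7 genes measured, summed to 41.2 to 57.8 CPM over all libraries, most of it EPCAM.

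Host transcripts moved in both directions, and few passed the test. MIR210HG, the host of the hypoxia-linked miR-210, fell 2.49-fold, while MIR1915HG and MIR122HG, the host of the liver microRNA miR-122, rose 1.35-fold and 1.62-fold. Of the 47 transcripts 31 passed the filter on low counts and were tested, 29 of them with every library over the filter's cutoff of 0.162 CPM, and none entered through a single group. Of these 31, 2 were called higher (6.45%), where 1.48% of all tested genes were called higher, and 1 lower (3.23%), where 2.12% of all tested genes were. With the library batch in the fit, 6 were called higher (19.4%), where 9.43% of all tested genes were, and 2 lower (6.45%), where 10.8% of all tested genes were. All 3 calls of the condition-only fit were among these 8. In 8 of the 31 every MTR4 KD library lay above every control library (25.8%, against 12.1% of all tested genes), and in 3 every MTR4 KD library lay below (9.68%, against 12.6%). The median log2 fold change of the 31 was 0.14, that of all tested genes 0.0062.

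**Figure D1:**
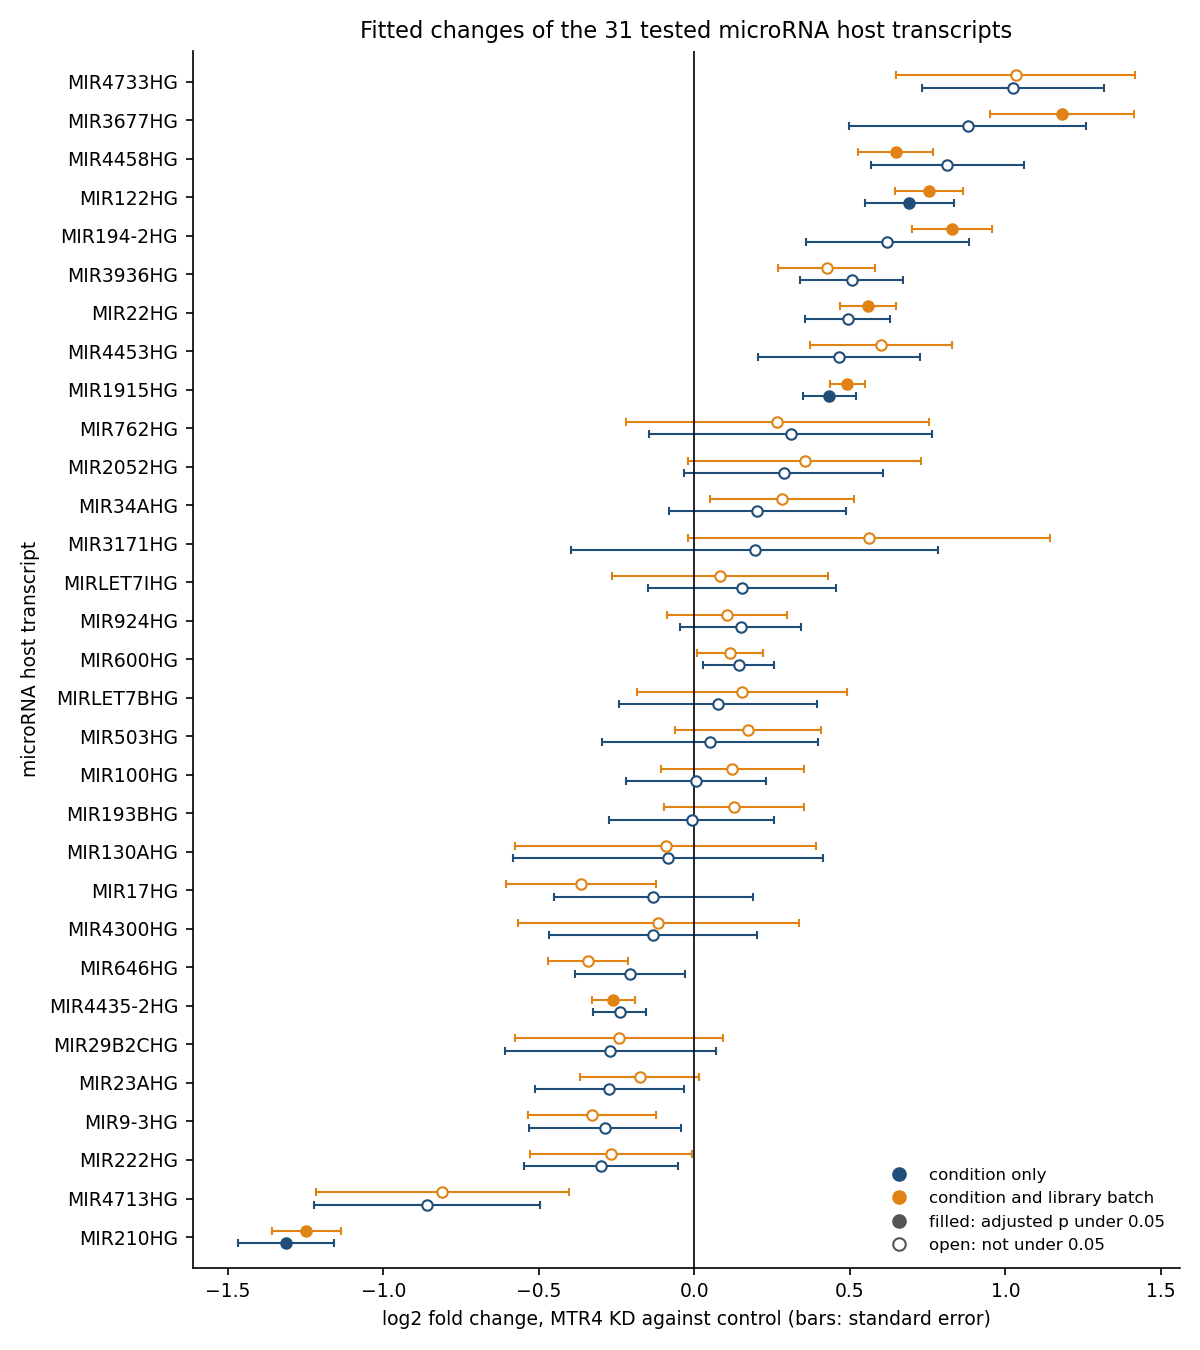
Log2 fold change between MTR4 KD and control on the x axis for each of the 31 tested host transcripts, from the fit with condition only (blue) and with the library batch (orange). Bars are standard errors and filled points have an adjusted p under 0.05. MIR210HG stands lowest at -1.31, and of the transcripts above 0 only MIR122HG and MIR1915HG are filled in both fits.

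MIR210HG (ENSG00000247095, chromosome 11, 565657 to 568457 on GRCh38.p14) is the host of miR-210, a microRNA that hypoxia-inducible factors switch on. It had 14.4, 14.7 and 17.0 CPM in control replicates 1 to 3 and 6.28, 4.93 and 7.34 CPM in MTR4 KD replicates 1 to 3. The groups were far apart, and the highest knockdown library lay well under the lowest control. The mean of 3 libraries fell from 15.4 ± 1.47 CPM to 6.18 ± 1.21 CPM (SD), and the fitted log2 change was -1.31 (SE 0.155, adjusted p = 0.00662, edgeR). In bulk RNA, fewer cells with a transcript and less transcript per cell cannot be told apart. With the library batch in the fit the change was -1.25 (adjusted p = 4.96e-06, edgeR), and the difference was -1.09 inside the high-multimapping and -1.39 inside the low-multimapping batch. The call held with each library left out in turn (adjusted p 0.00527 to 0.0460, edgeR). In the condition-only fit MIR210HG was the one called host with a fold change over 2.

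The promoter of MIR210HG, 250 bases before to 50 after its RefSeq start (chr11:568408-568707, minus strand, GRCh38.p14), is shown because miR-210 is a textbook hypoxia target. ACGTG, a core spelling of the hypoxia response element, was searched on both strands (CACGT is its reverse complement) and is in capitals. Other spellings of that core were not searched and are not marked. MIR22HG (chr17:1716161-1716460, minus strand), which lay higher after the knockdown, is printed for comparison.
MIR210HG: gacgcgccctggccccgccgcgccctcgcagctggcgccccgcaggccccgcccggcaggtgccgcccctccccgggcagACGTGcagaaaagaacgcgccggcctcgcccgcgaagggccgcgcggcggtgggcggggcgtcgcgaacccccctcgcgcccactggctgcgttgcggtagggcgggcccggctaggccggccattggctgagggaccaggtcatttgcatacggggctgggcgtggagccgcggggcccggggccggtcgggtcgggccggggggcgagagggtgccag
MIR22HG: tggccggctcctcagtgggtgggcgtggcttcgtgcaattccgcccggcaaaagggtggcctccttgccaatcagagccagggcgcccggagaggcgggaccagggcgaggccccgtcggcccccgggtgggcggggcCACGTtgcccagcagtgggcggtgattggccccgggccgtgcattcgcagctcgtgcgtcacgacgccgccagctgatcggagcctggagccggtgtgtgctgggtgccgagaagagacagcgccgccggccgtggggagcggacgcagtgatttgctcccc
Each window held 1 match of ACGTG, 170 bases before the start in MIR210HG and 112 bases before it in MIR22HG. The letters were in 5900 of 27305 RefSeq promoters of 300 bases (21.6%) and in 10 of the 38 host promoters given (26.3%). The longer CACGTG, which overlaps it, was in 2030 of all promoters and in 1 of the 38, that of MIR142HG. A match is a description of the letters and not a binding site.

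MIR122HG (ENSG00000267391, chromosome 18, 58446263 to 58451281) carries miR-122, the most abundant microRNA of hepatocytes. It had 5.51, 5.68 and 5.85 CPM in control and 8.69, 7.70 and 11.2 CPM in MTR4 KD libraries. The control libraries were close to each other and all 3 knockdown libraries lay above them. The log2 fold change was 0.69 (SE 0.144, adjusted p = 0.0498, edgeR), close to the threshold, and 0.76 with the library batch (adjusted p = 0.000347, edgeR). In the condition-only fit the call was lost on leaving out any 1 library except MTR4 KD replicate 3 (adjusted p 0.0736 to 0.203, and 0.0484 without that library, edgeR). With the batch in the fit it held without control replicate 1 or 3, or MTR4 KD replicate 1 or 2. The adjusted p was then 0.00026 to 0.00321 (edgeR). Without control replicate 2 that fit gave 0.97 and without MTR4 KD replicate 3 it gave 0.54, each from a single batch. Of the 8 liver markers, ALB, APOA1 and TTR were also called higher and none lower, with log2 fold changes of 0.29, 0.52 and 0.88 (adjusted p = 0.0480, 0.00921 and 0.00693, edgeR). The others were not called with condition only and lay on both sides of 0. Their log2 fold changes were 0.25 for FGB, 0.13 for APOB, 0.03 for HNF4A, -0.12 for AFP and -0.21 for SERPINA1. The part of the liver markers in the result for MIR122HG was not tested.

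MIR194-2HG (ENSG00000229719, chromosome 11, 64888458 to 64893449) carries miR-192 and miR-194, microRNAs of liver, gut and kidney epithelium. Its level was 3.10, 1.93 and 2.75 CPM in control and 3.26, 3.28 and 5.42 CPM in MTR4 KD libraries. The groups did not overlap, but control replicate 1 and MTR4 KD replicate 1 were nearly level. The log2 fold change of 0.62 did not pass with condition only (SE 0.261, adjusted p = 0.261, edgeR), and the value with the library batch, 0.83, did (adjusted p = 0.000605). Without MTR4 KD replicate 3 the condition-only value was 0.34 (adjusted p = 0.389). The within-batch differences were 0.88 (high-multimapping) and 0.75 (low-multimapping).

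MIR1915HG (ENSG00000204682, chromosome 10, 21492658 to 21497260), also known as CASC10, was the host with the highest level, both in CPM and per length. It had 38.0, 31.3 and 36.9 CPM in control and 47.6, 46.5 and 49.3 CPM in MTR4 KD libraries. Every knockdown library lay above every control library, and control replicate 2 was the lowest. The mean of 3 libraries was 35.4 ± 3.58 CPM in control and 47.8 ± 1.41 CPM in MTR4 KD (SD), and the fitted log2 change was 0.43 (SE 0.0850, adjusted p = 0.0407, edgeR). With the library batch it was 0.49 (adjusted p = 5.26e-05, edgeR). In the condition-only fit the call held without control replicate 2 (adjusted p = 0.0376) and was lost without any other single library (adjusted p 0.0823 to 0.181). With the batch in the fit it held without control replicate 1 or 3, or MTR4 KD replicate 1 or 2. So did the calls of MIR210HG, MIR22HG, MIR4458HG and MIR194-2HG. Without control replicate 2 or MTR4 KD replicate 3 that fit rested on a single batch, with a single library in 1 condition.

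MIR22HG (ENSG00000186594, chromosome 17, 1711504 to 1716210) carries miR-22, a microRNA widely expressed in differentiated tissues. Its control libraries had 12.4, 12.3 and 12.3 CPM and its MTR4 KD libraries 15.7, 15.0 and 21.2 CPM. The controls were almost identical and MTR4 KD replicate 3 was the highest of all. The log2 fold change was 0.49 with condition only (SE 0.137, adjusted p = 0.113, edgeR) and 0.56 with the library batch (adjusted p = 0.000845). The difference inside the batches was 0.78 (high-multimapping) and 0.32 (low-multimapping). Without MTR4 KD replicate 3 the condition-only value was 0.32 (adjusted p = 0.0795). The fit with the batch then gave 0.34, from control replicate 2 against MTR4 KD replicates 1 and 2. WDR81 is its neighbour on the opposite strand. The 2 spans overlap in GENCODE, without shared exonic bases, and do not overlap at their RefSeq positions. WDR81 was called higher by 0.40 on the log2 scale (adjusted p = 0.0139, edgeR). The strand setting of the counting is not given in the sources used here.

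**Figure D2:**
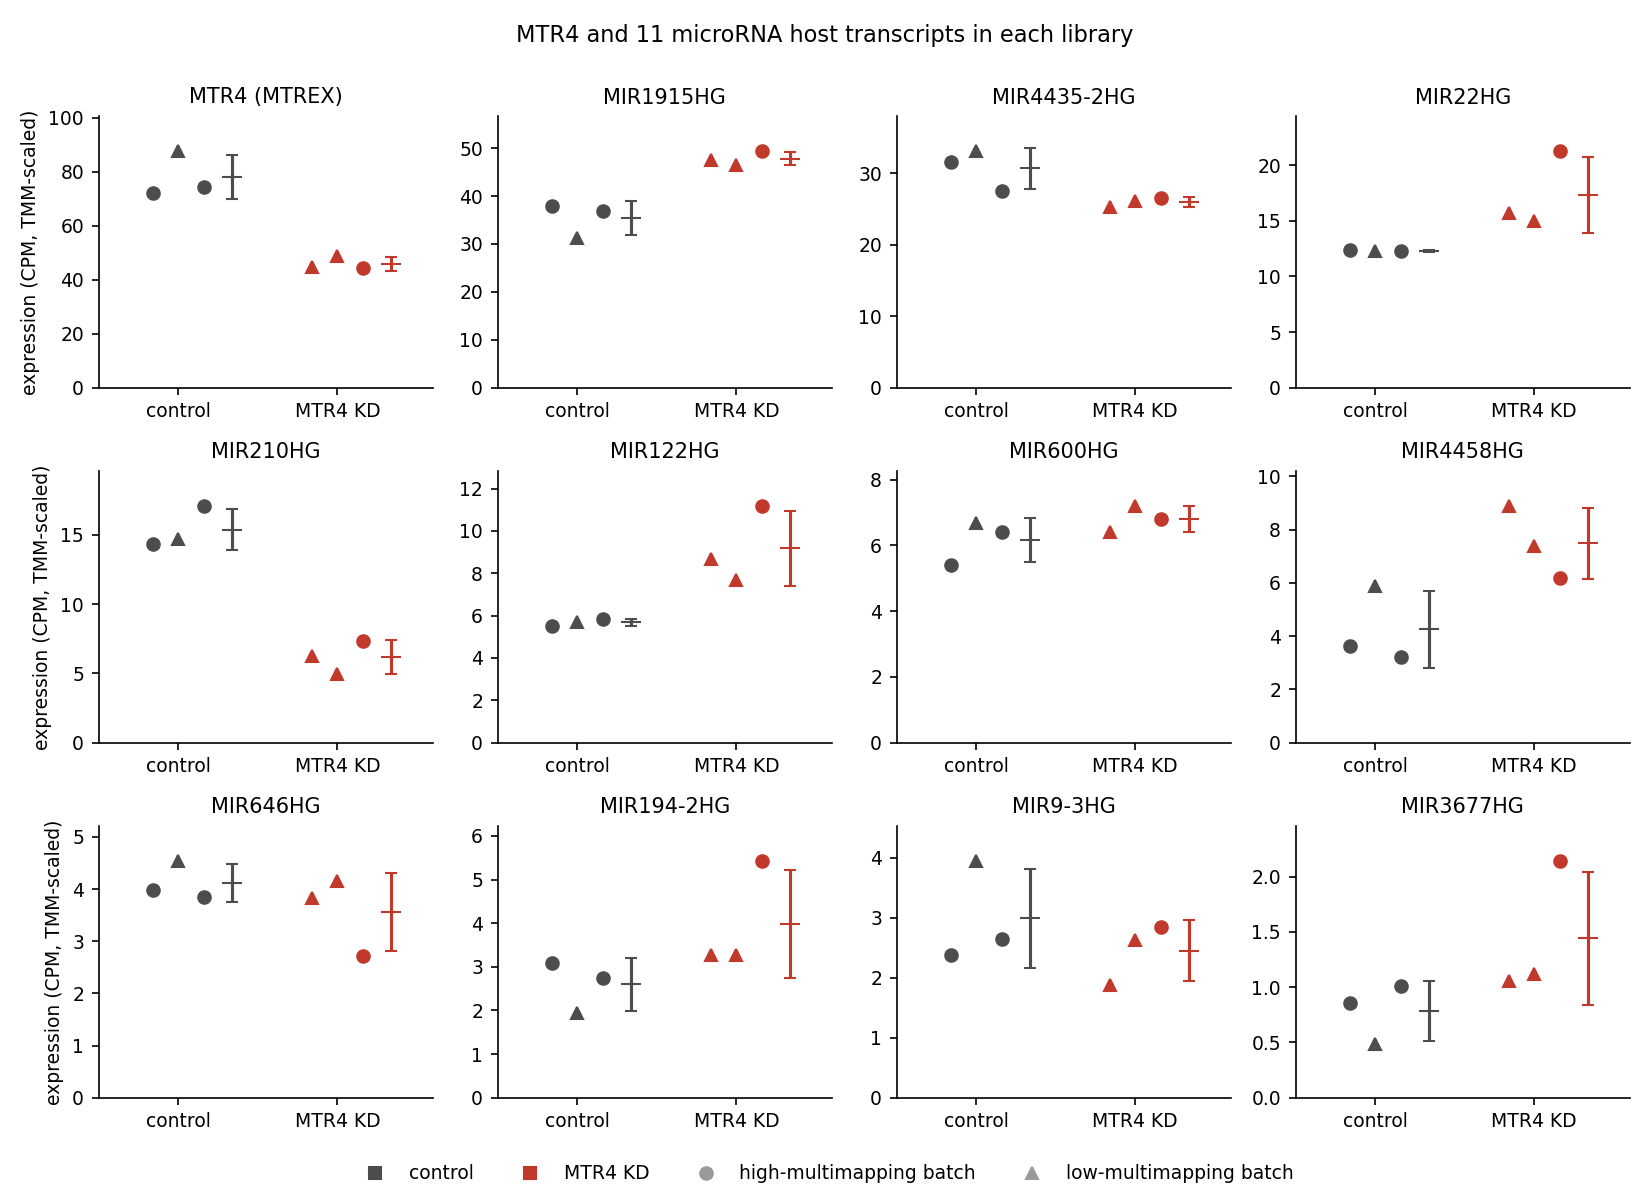
Expression in CPM (y axis, from 0) of MTR4 and the 11 named host transcripts in the 3 control and 3 MTR4 KD libraries, with replicates 1 to 3 from left to right in each group. Circles are libraries of the high-multimapping batch, triangles those of the other, and the bar beside them is the mean ± SD. MIR210HG shows 14.4 to 17.0 CPM against 4.93 to 7.34 CPM. MIR1915HG, MIR22HG, MIR122HG, MIR194-2HG and MIR3677HG have their highest value in MTR4 KD replicate 3.

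In edgeR's test of all 6 libraries, MIR4458HG and MIR3677HG passed only with the library batch in the fit. DESeq2's Wald test called MIR4458HG with condition only (adjusted p = 0.0170). MIR4458HG (ENSG00000247516, chromosome 5, 8457687 to 8463096) encodes miR-4458, whose seed is that of let-7. It had 3.63, 5.90 and 3.22 CPM in control and 8.87, 7.38 and 6.20 CPM in MTR4 KD libraries. Control replicate 2 came close to the lowest knockdown library. The log2 fold change was 0.81 with condition only (SE 0.246, adjusted p = 0.136, edgeR) and 1.12 without control replicate 2 (adjusted p = 0.0200). Adding the library batch gave 0.65 (adjusted p = 0.00235), and the differences inside the batches were 0.85 and 0.45.

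The other hosts of the let-7 seed did not pass in either fit or were too low to test. MIRLET7BHG, the host of let-7b among others, had a log2 fold change of 0.08 (SE 0.319, adjusted p = 0.921, edgeR). For MIRLET7IHG it was 0.15 (SE 0.303, adjusted p = 0.837) and for MIR100HG 0.01 (SE 0.225, adjusted p = 0.993). MIR4500HG had 43 counts and MIR99AHG 17 counts over all libraries, and both stayed untested.

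MIR3677HG (ENSG00000260778, chromosome 16, 2268663 to 2273072) carries miR-3677 and miR-940. It had 0.859, 0.483 and 1.01 CPM in control and 1.06, 1.12 and 2.14 CPM in MTR4 KD libraries, from 35 to 131 counts per library. The groups touched but did not overlap, and MTR4 KD replicate 3 was almost at the sum of the other 2. The log2 fold change was 0.88 with condition only (SE 0.382, adjusted p = 0.275, edgeR) and 1.18 once the library batch was added (adjusted p = 0.00318). The differences inside the batches were 1.17 and 1.12. Without MTR4 KD replicate 3 the condition-only value was 0.48 (adjusted p = 0.431, edgeR). The fit with the batch then gave 1.18, from control replicate 2 against MTR4 KD replicates 1 and 2, and no longer called MIR3677HG. RNPS1, a splicing-linked gene on the opposite strand, shares 111 exonic bases with MIR3677HG in GENCODE. At their RefSeq positions the spans do not overlap. RNPS1 changed by -0.20 on the log2 scale (adjusted p = 0.174, edgeR), and by -0.16 with the library batch (adjusted p = 0.0206).

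MIR4435-2HG (ENSG00000172965, chromosome 2, 111195866 to 111495161) is a long noncoding RNA. In GENCODE its span overlaps BCL2L11, the gene of the cell death factor BIM, on the opposite strand. At their RefSeq positions the spans do not overlap. MIR4435-2HG had 31.5, 33.0 and 27.5 CPM in control and 25.3, 26.2 and 26.5 CPM in MTR4 KD libraries. The groups did not overlap, but control replicate 3 was close to the knockdown libraries. The log2 fold change was -0.24 with condition only (SE 0.0853, adjusted p = 0.192, edgeR) and -0.26 with the library batch (adjusted p = 0.0186). The latter call was lost without control replicate 1 or MTR4 KD replicate 1 (adjusted p = 0.0621 and 0.0819, edgeR). Without control replicate 2 the value was -0.16, from the high-multimapping batch alone, and it was not called. Part of this host has a copy elsewhere: 27.6% of the 50-base words of its exons also occur in CYTOR, and 31.2% in CYTOR or another gene. The log2 change of CYTOR was -0.06 (SE 0.152, adjusted p = 0.881, edgeR). Reads from the shared stretches are not unique, so the level of MIR4435-2HG is uncertain, and the batches differ in the share of such reads. In GENCODE MIR4435-2HG also shares 727 exonic bases with BCL2L11, and reads there cannot be told apart without strand. BCL2L11 had 32.7 CPM in control and 36.2 CPM in MTR4 KD libraries (log2 change 0.15, adjusted p = 0.299, edgeR).

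A further 3 hosts were among the 10 with the highest CPM and passed in neither fit. MIR600HG had 5.40 to 6.69 CPM in control and 6.41 to 7.19 CPM in MTR4 KD libraries, a log2 fold change of 0.14 (SE 0.113, adjusted p = 0.557, edgeR). It shares 254 exonic bases with STRBP on the same strand. MIR646HG had 3.85 to 4.53 CPM in control and 2.72 to 4.15 CPM in MTR4 KD libraries (log2 fold change -0.21, SE 0.176, adjusted p = 0.584, edgeR). MIR9-3HG, a host of miR-9, had 2.38 to 3.94 CPM in control and 1.87 to 2.84 CPM in MTR4 KD libraries (log2 fold change -0.29, SE 0.244, adjusted p = 0.582, edgeR). Its difference had opposite signs in the batches, 0.18 and -0.82. Without MTR4 KD replicate 3 the fit with the batch gave -0.79, which rests on the low-multimapping batch and its single control library. Per kilobase of exon, the order of the hosts was MIR1915HG with 10.3 CPM, MIR22HG with 4.77, MIR210HG with 4.63, MIR122HG with 1.28 and MIR3677HG with 1.13, as means over all libraries. MIR22HG and MIR210HG lay close in this order, with MIR210HG above in control and below in MTR4 KD libraries.

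Of the 31 tested hosts 18 had the same sign in both batches and 13 had opposite signs. The 8 hosts called with the batch in the fit all kept their sign, which that fit favours by its construction.

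**Figure D3:**
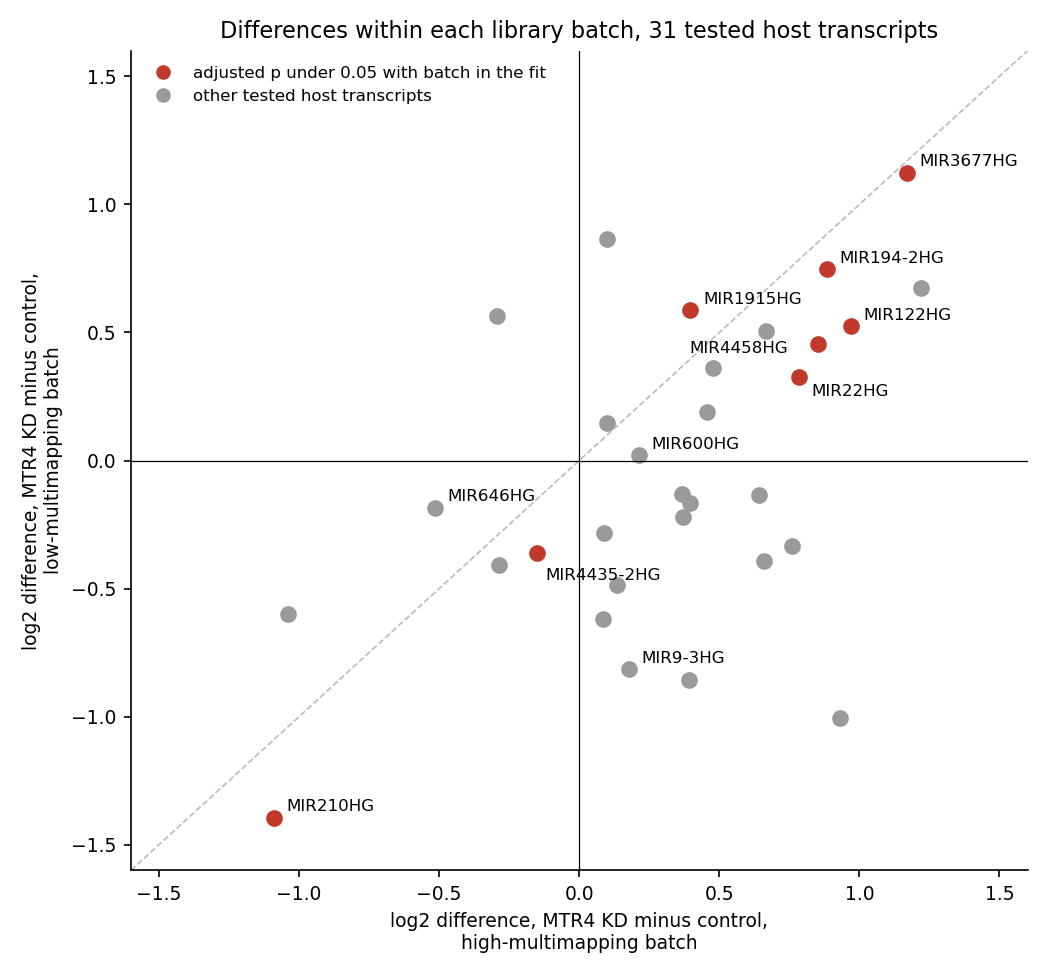
Log2 difference between MTR4 KD and control inside the high-multimapping (x axis) and the low-multimapping batch (y axis), 1 point for each of the 31 tested host transcripts. Red points are the 8 called with the batch in the fit, which lie at the upper right and lower left. Of the grey points, 13 have opposite signs in the batches, among them MIR9-3HG.

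The remaining 20 tested hosts had means of 0.176 to 2.27 CPM and log2 fold changes from -0.86 to 1.03, with a median of 0.06 and a median SE of 0.311. Of these, 12 were above 0 and 8 below, and none was called in either fit (smallest adjusted p 0.120 with condition only and 0.0749 with the batch, edgeR). An unadjusted p under 0.05 with condition only was reached by 2 of them above and 1 below 0, and DESeq2 and limma-voom called 0. The hosts of the p53 target miR-34a, the cell cycle cluster miR-17 to miR-92a and miR-23a were in this set. MIR34AHG had a log2 fold change of 0.20 (SE 0.285), MIR17HG -0.13 (SE 0.321) and MIR23AHG -0.27 (SE 0.239), none far outside its error. Among the 20, 3 had groups that did not overlap, and they are named here after their values were seen. MIR4733HG had 0.211, 0.262 and 0.216 CPM in control and 0.440, 0.434 and 0.538 CPM in MTR4 KD libraries (log2 fold change 1.03, SE 0.292, adjusted p = 0.120, edgeR). MIR3936HG had 1.80, 2.15 and 1.67 CPM against 3.00, 2.58 and 2.43 CPM (0.51, SE 0.165, adjusted p = 0.162). MIR4713HG had 0.746, 0.539 and 0.663 CPM against 0.522, 0.225 and 0.326 CPM (-0.86, SE 0.364, adjusted p = 0.264). These hosts rest on few counts, and 21.2% of the 50-base words of MIR4733HG also occur in NF1.

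The 16 hosts that were not tested had totals of 10 to 96 counts. Among them were hosts known from other tissues, MIR155HG and MIR142HG of blood cells with 12 and 11 counts, and MIR9-1HG and MIR124-2HG of neural tissue with 96 and 35. The last pair was set by a single library. MIR124-2HG had 0, 35 and 0 counts in control replicates 1 to 3 and 0 in all MTR4 KD libraries, and MIR9-1HG had 3, 76 and 2 counts in control and 5, 2 and 8 in MTR4 KD libraries. Control replicate 2 stood apart in this way over all genes: 408 of 25086 genes were over 5 times higher there than in every other library, where the other libraries had 11 to 75 such genes. Over the 47 hosts, the summed level was 140.8, 143.0 and 139.4 CPM in control and 149.7, 143.9 and 166.7 CPM in MTR4 KD libraries. The 5 hosts with the most counts held 69.8% of the 56457 counts of the group, and 19 hosts had under 100 counts in all.

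Counts on the microRNA genes themselves were low. These libraries were not made for short RNAs, and mature microRNAs were not measured. Inside 44 of the 47 hosts lay 73 hairpin genes on the same strand, and 48 of these were matched in the count files by symbol. Of the 48, 30 were at 0 in every library, and the highest, MIR3936, had 125 counts in all. GENCODE put 12 hairpin genes in an exon of the host, 4 across an exon edge and 31 in an intron. MIR122 and MIR192, both in an exon, had 0 counts although their hosts had 340 to 684 and 140 to 332 counts per library. HTSeq as a rule sets aside a read that falls on 2 genes as ambiguous, a class of 5.89% to 8.29% of entries here, and the mode used is not given. MIR3936, also in an exon of its host, had counts in every library.

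MIR210, in an intron of MIR210HG, had 29, 10 and 25 counts in control replicates 1 to 3 and 0, 2 and 27 in MTR4 KD replicates 1 to 3. MTR4 KD replicate 3 was thus as high as the controls of its batch, although MIR210HG itself was low in that library. Among the low-multimapping libraries the counts were 10 in control against 0 and 2. MIR1915 had 10, 9 and 27 counts in control and 9, 15 and 29 in MTR4 KD libraries, and MIR3677 had 15, 4 and 22 against 12, 6 and 6. Both sets of groups overlapped. Too few counts fell on these genes for a statement on the microRNAs.

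**Figure D4:**
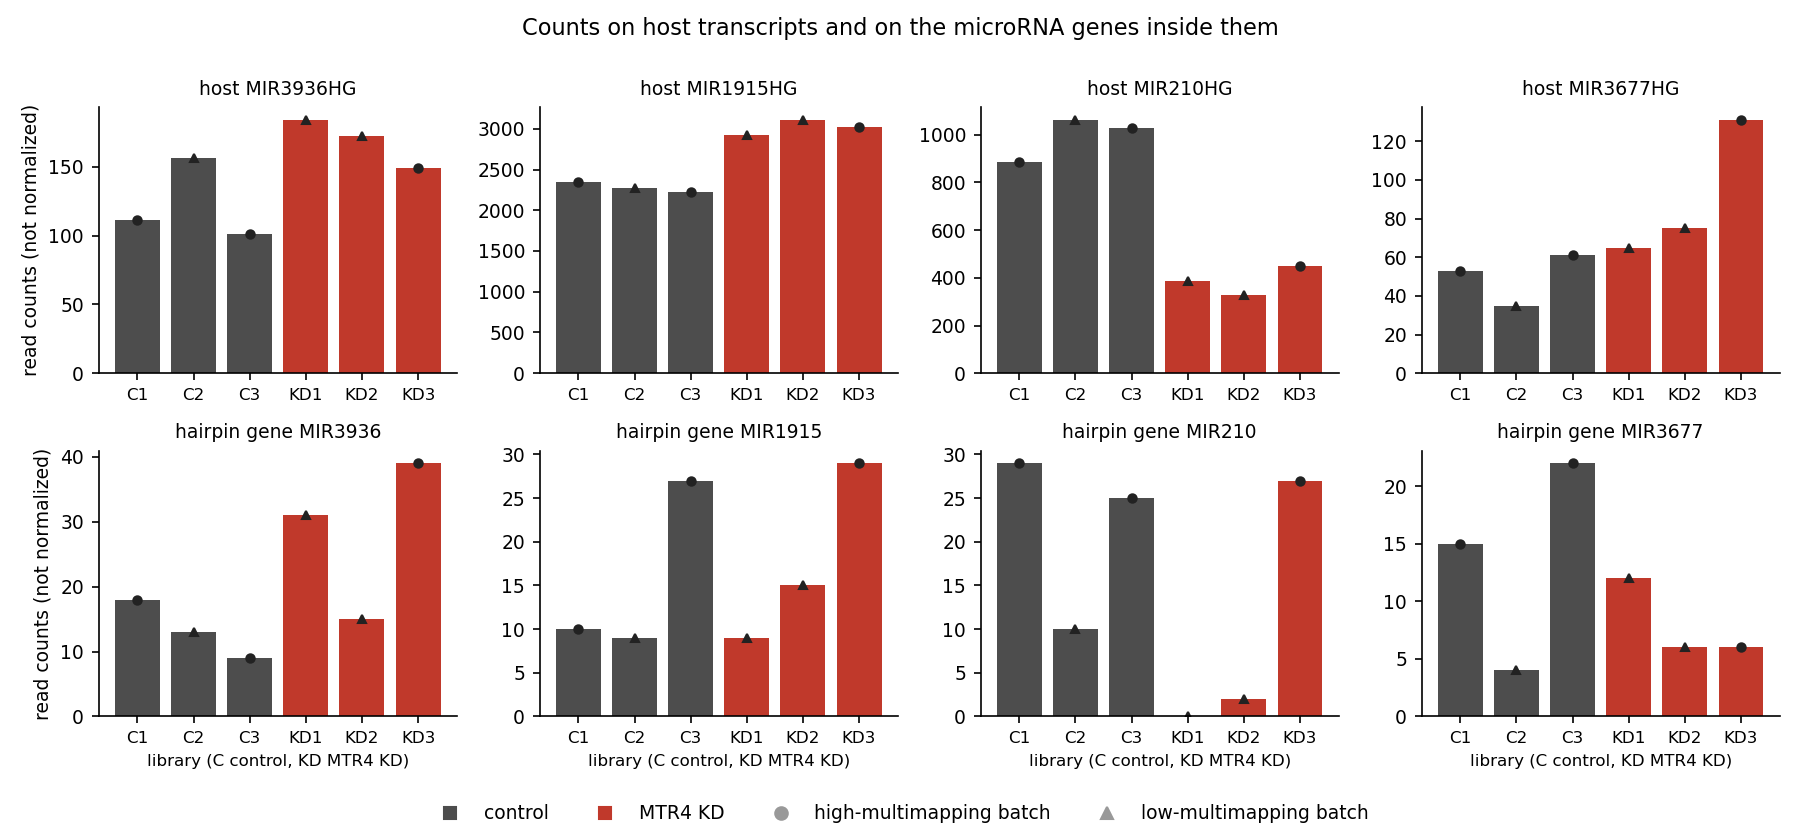
Read counts, not normalized, in each library (C1 to C3 control, KD1 to KD3 MTR4 KD) for 4 host transcripts (top row) and the microRNA genes inside them (bottom row), the 4 hairpin genes with over 10 counts in all. Circles and triangles on the bars mark the high-multimapping and low-multimapping batch. MIR210HG is low in all 3 MTR4 KD libraries, while MIR210 has 0, 2 and 27 counts there.

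No gene that processes or loads microRNAs passed the test with condition only. Of 31 genes of the pathway, all tested, none was called with condition only (edgeR). An unadjusted p under 0.05 was reached by 2, SRSF3, a splicing factor that helps DROSHA choose its site, and TNRC6A, a partner of AGO proteins. DESeq2 called 1, TNRC6A, and limma-voom none. With the library batch, edgeR called 2 higher and 3 lower, 16.1% of the 31, where 20.2% of all tested genes were called in that fit. TNRC6A rose by 0.25 on the log2 scale (adjusted p = 0.00434) and SRSF3 0.15 (adjusted p = 0.0175) in that fit. The 3 lower were RAN, which drives export with XPO5 (-0.15, adjusted p = 0.0207), HNRNPA1, which binds certain primary transcripts (-0.15, adjusted p = 0.0362), and LIN28A, which blocks let-7 maturation (-2.90, adjusted p = 0.00620). LIN28A had 2, 304 and 15 counts in control and 23, 16 and 9 in MTR4 KD libraries, so its fold rests on control replicate 2. The log2 change of DROSHA was -0.04 (adjusted p = 0.847, edgeR), DGCR8 -0.01 (adjusted p = 0.943), DICER1 0.16 (adjusted p = 0.511) and AGO2 -0.01 (adjusted p = 0.968), all with condition only.

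Beside the hosts named as such, other gene classes are given as counts and medians, with no test between the classes. Of 2606 tested lncRNA genes 28 were called higher and 19 lower (1.80%, against 3.60% of all tested genes). Their median log2 fold change was 0.10, against 0.14 for the 31 microRNA hosts. Of 24 tested snoRNA host genes edgeR called 0 with condition only (9 at an unadjusted p under 0.05). DESeq2 called 5 of them and limma-voom 0, and their median was 0.16. With the library batch 8 were called higher and 1 lower (37.5%, against 20.2% of all tested genes). Of 774 tested protein-coding genes with a microRNA gene inside them 10 were called higher and 22 lower (4.13%, median -0.02). Of 58 tested lncRNA genes with a microRNA gene inside but another name 2 were called higher and 0 lower (3.45%, median -0.01). In the last class 4 genes were higher and 6 lower at an unadjusted p under 0.05, DESeq2 called 2 higher and 1 lower, and limma-voom 1 higher and 0 lower. With the library batch in edgeR's fit, 165 lncRNA genes were called higher and 62 lower (8.71%, against 20.2% of all tested genes). The counts were 72 and 122 for the protein-coding genes with a microRNA gene inside (25.1%). They were 2 and 1 for the last class (5.17%).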

How the data were processed

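The RNA-seq data were 3 control and 3 MTR4 KD libraries of PLC/PRF/5 cells. The authors deposited raw counts of reads per Ensembl gene for each library, with no normalization. The submitters' processing notes name HISAT2 2.1.0, HTSeq, DESeq2 and GRCh38, and the study's methods name Ensembl release 84. The strand setting and overlap mode of the counting are not given in the sources used here. Groups and replicate numbers came from the sample labels. The rows for reads not assigned to a gene were left out of library sizes. Between 60686786 and 72708682 counts fell on genes.

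Symbols, biotypes, exons and strands came from GENCODE release 44 lifted to GRCh37, with 56959 of the 60675 genes in the files. Positions on GRCh38.p14, mature microRNAs and promoters came from RefSeq, matched by symbol. All 47 hosts had a position and 38 a promoter. Host transcripts, gene lists and tests were chosen with earlier results of these data known.

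R 4.3.3 was used with edgeR 4.0.16, limma 3.58.1 and DESeq2 1.42.0, and Python 3.11.15 with pandas 2.3.3, numpy 2.4.6 and matplotlib 3.10.9. Genes were kept by filterByExpr (minimum count 10), scaled by TMM and tested in edgeR by quasi-likelihood with a single condition term, with Benjamini-Hochberg adjustment over 18075 genes. Log2 CPM for within-batch differences used a prior count of 2. The biological coefficient of variation was 0.175 in this fit and 0.0573 once the library batch was added. The batch was read from the share of non-unique alignments, split at 30%. Shared sequence was measured in words of 50 bases over GENCODE exons. The condition-only fit was tested on simulated counts with no batch difference, drawn at the dispersion of the fit with the batch. The simulated spread was thus below that of these data in the condition-only fit, so the test does not cover it.

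Named genes were MTR4, hosts called with or without the batch, the 10 hosts with the highest mean CPM, hosts near the threshold of 10 counts, called pathway genes, genes overlapping called hosts and the hairpin genes inside them. Alternatives were DESeq2 size factors, total counts, no filter, at least 1 CPM in 3 libraries, limma-voom, the Wald test of DESeq2, a block for replicate number, the library batch, a fold change over 2, and each library left out. Leaving out libraries with the batch in the fit was added after the data were seen.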

Additional observations from a re-analysis of the deposited data

How the results depend on the processing

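The condition-only test called 2 host transcripts higher and 1 lower. The number called higher was 1 with DESeq2 size factors or limma-voom, 4 with DESeq2's Wald test (MIR22HG and MIR4458HG added), 6 with the library batch and 0 when a fold change over 2 was also asked for, and 0 to 2 with each library left out. The number called lower was 2 with the library batch and otherwise 1. With the batch, 6 were called higher and 1 to 2 lower without control replicate 1 or 3 or MTR4 KD replicate 1 or 2. Without control replicate 2 or MTR4 KD replicate 3, a batch held a single condition, so that fit rested on the other batch. Over all genes 650 were called, 1363 by DESeq2's Wald test, 3649 with the batch, 150 with a fold change over 2 and 137 to 803 with a library left out. Of the pathway genes 0 were called, 1 by DESeq2's Wald test, 5 with the batch and 0 to 1 with a library left out. MIR210HG was called under all 20 alternatives. MIR9-3HG, never called with condition only, turned to 0.18 with the batch and without control replicate 2. That value comes from the high-multimapping batch alone. The log2 fold changes of the other 10 named hosts kept their sign. The median of the hosts was -0.0036 without the filter, where all 47 hosts enter. The cause of these shifts was not tested.

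Replicate numbers did not pair the libraries: the deviations of same-numbered libraries correlated at -0.24, 0.325 and 0.352 across genes. Libraries with different numbers reached similar values, 0.36 for control replicate 2 with MTR4 KD replicate 1 and 0.336 for control replicate 1 with MTR4 KD replicate 3. The correlation was positive for every pair inside a library batch and negative for every pair across the batches. With the replicate block, 857 genes, 2 higher hosts and 1 lower host were called. The 16 hosts that did not pass the filter had totals of 10 to 96 counts, and no difference was tested in them. Totals alone did not decide this: MIR762HG was tested with 96 counts, and MIR9-1HG, with 76 of its 96 counts in control replicate 2, was not.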

Other observations

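Genes that contain a microRNA under another name included several with larger changes than most of the hosts above. Of 32 called protein-coding genes of this kind, 3 passed a fold change of 2. EGLN3, an oxygen-sensing prolyl hydroxylase that hypoxia induces, has the hairpin gene AL358340.1 inside. It went from 6.40 to 2.32 CPM (log2 fold change -1.46, adjusted p = 0.00348, edgeR). GPRC5A, the host of MIR614, went from 21.3 to 9.35 CPM (-1.19, adjusted p = 0.00222). ECM2, with MIR4670 inside, went from 0.294 to 0.956 CPM (1.69, adjusted p = 0.0367). PFKFB3, a regulator of glycolysis that carries MIR3155A, went from 446.2 to 348.2 CPM (-0.36, adjusted p = 0.0318). Its change was smaller than that of other called genes of this kind, such as THSD4 (-0.99), WNT7B (-0.97) and PRKG1 (0.95). The 2 called lncRNA genes of this kind were DANCR, with MIR4449 inside, from 50.5 to 70.2 CPM (0.47, adjusted p = 0.0173), and RAB11B-AS1, with MIR4999 inside, from 1.34 to 2.60 CPM (0.96, adjusted p = 0.0451). These genes were picked after their values were seen.

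Markers of other cell types were low apart from EPCAM. KRT19, a bile duct keratin, had 63, 50 and 59 counts in control and 12, 3 and 11 in MTR4 KD libraries (log2 fold change -2.67, adjusted p = 0.0318, edgeR). PTPRC, a leukocyte marker, had 109 of its counts in control replicate 3 and 0 in control replicate 2.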
